A study of Mus musculus with 67 samples.

Results

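The nuclear genes of the respiratory chain and of ATP synthase were taken as every gene whose symbol begins with Ndufa, Ndufb, Ndufc, Ndufs, Ndufv, Sdh, Uqcr, Cox4 to Cox8 or Atp5, with the Ndufaf assembly factors left out. The rule found 90 of the 24471 genes of the second experiment and 89 of the 24421 gene symbols of the pilot, and these genes are called the members below. They hold 7 core and 29 accessory subunits of complex I, 4 subunits of complex II, 8 of complex III, 11 of complex IV, and 5 F1 and 12 Fo or stalk subunits of ATP synthase. The prefixes also took in 8 tissue-restricted isoforms of complex IV subunits, 4 assembly factors of complex II (Sdhaf1 to Sdhaf4), the supercomplex factor Cox7a2l and the pseudogene Ndufs5-ps. Of the 13 subunit genes of mitochondrial DNA, 0 were in the files.

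Complex I takes electrons from NADH and complex II takes them from succinate, as an enzyme that also belongs to the TCA cycle. Complex III passes them on to cytochrome c and complex IV to oxygen, and the proton gradient built on the way drives the rotary F1 and Fo parts of ATP synthase. Activated T cells raise respiration along with glycolysis, and regulatory T cells (Tregs) are known for relying on oxidative phosphorylation.

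T cells were sorted from the hypothalamus and from the rest of the brain of Foxp3 GFP reporter mice, and each library came from a numbered pool. All Balb/c pools came from females and all C57Bl/6J pools from males, which means that in every strain comparison strain and sex cannot be told apart. From 6 weeks of age they received a high-fat, high-sugar (HFHS) diet or standard diet (SD), for a time that the labels of the second experiment do not give. Activated conventional T cells (activated Tconv) were live CD4+ CD25- Foxp3GFP- cells with high CD44 and low CD62L, and Tregs were Foxp3GFP+. In the rest brain there were 13 activated Tconv libraries (3 Balb/c HFHS, 3 Balb/c SD, 3 C57Bl/6J HFHS and 4 C57Bl/6J SD) and 14 Treg libraries (4, 2, 4 and 4 in the same order), and in the hypothalamus 4 libraries of each strain and diet for each cell type. The 59 libraries held 1724154 to 38482282 counts on genes (median 17804196).

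All activated Tconv libraries held T cell transcripts, but 4 of the 16 Treg libraries of the hypothalamus had under 5 CPM (counts scaled to the sum over genes) of Foxp3, the transcription factor that defines Tregs. They were Balb/c SD pool 32_36 (0.0977 CPM), C57Bl/6J HFHS pool 06_10 (0.429 CPM), C57Bl/6J SD pool 11_15 (1.21 CPM) and C57Bl/6J SD pool 43_47 (3.48 CPM), against 30.4 CPM or more in every other Treg library. Pool 32_36 held 4866 CPM of the microglial gene P2ry12 and had no count for 30 members, and pool 43_47 had the lowest depth. Pool 11_15 held 413 CPM of P2ry12 and 2122 CPM of the endothelial gene Cldn5. Hypothalamic Treg libraries had 2109 to 9901 genes with more than 10 counts, against 9016 to 10133 in hypothalamic activated Tconv, and the tests on them are given with and without the 4 libraries. Among activated Tconv libraries, the Balb/c SD pool 42_46 of the rest brain stood apart with 265 CPM of P2ry12 and 827 CPM summed over 9 microglial genes, against 68.9 to 127 CPM in the other 12.

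In activated Tconv the members reached high levels per transcript length. Over the 29 libraries the mean of the summed TPM, the scale that divides by transcript length, was 14463 TPM for complex I, 888.6 TPM for complex II, 4565 TPM for complex III, 12989 TPM for complex IV and 15714 TPM for ATP synthase. These are sums over unequal numbers of subunits and not levels of assembled complexes. By TPM the leading genes were Ndufa3 (median 1619 TPM) and Ndufa1 (679 TPM), small accessory subunits of complex I, and in complex II the iron-sulfur subunit Sdhb (396 TPM) and the membrane anchor Sdhd (222 TPM). In complex III they were Uqcrb (1083 TPM) and the hinge subunit Uqcrh (873 TPM), in complex IV Cox6a1 (1552 TPM) and Cox6b1 (1534 TPM), and in ATP synthase Atp5md and the peripheral stalk subunit Atp5h (each 1526 TPM). Outside the restricted isoforms, all members but Sdhaf1 had counts in every activated Tconv library, and Sdhaf1 had none in 1 of 29.

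Where a subunit has several genes, the form found in most tissues carried the transcripts. The TPM medians in activated Tconv were 1250 TPM for Cox4i1, 573 TPM for Cox7a2, 405 TPM for Cox7b, 1378 TPM for Cox8a and 1420 TPM for Ndufa4. Cox5a and Cox5b, which encode different subunits, had 867 TPM and 599 TPM. The supercomplex factor Cox7a2l had 234 TPM. The c ring of ATP synthase, whose subunit c is encoded by Atp5g1, Atp5g2 and Atp5g3, had 462, 545 and 971 TPM in that order, and all 3 genes contributed. The restricted isoforms Cox4i2, Cox6a2, Cox6b2, Cox7b2, Cox8b, Cox8c and Ndufa4l2 had a median of 0 TPM and were above 0 in 3, 4, 11, 5, 1, 1 and 13 of the 59 libraries. Cox7a1, the form of heart and muscle, had a median of 2.996 TPM, was above 0 in 20 libraries and did not pass 3.80 CPM in any. A few single libraries stood out, with 23.2 CPM of Cox4i2 and 42.7 CPM of Ndufa4l2 in C57Bl/6J SD hypothalamic Treg pool 11_15, 81.2 CPM of Cox7b2 and 23.2 CPM of Cox8c in pool 43_47 and 47.5 CPM of Cox6a2 in pool 62_66. The first 2 of these pools are among the Foxp3-low libraries.

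The members took up the largest mean share of counts in activated Tconv of the Balb/c rest brain. The 3 Balb/c HFHS libraries gave 2.73%, 2.93% and 3.0% of their gene counts to the members, and the 3 Balb/c SD libraries 2.53%, 2.37% and 2.10%. The 3 C57Bl/6J HFHS libraries gave 1.53%, 1.75% and 1.69%, and the 4 SD libraries 1.93%, 1.93%, 1.81% and 1.75%. Every Balb/c library was above every C57Bl/6J library, with 2.61% ± 0.345 (SD, n = 6) against 1.77% ± 0.139 (n = 7). The mean log2(CPM + 1) over the members was 7.05 to 7.43 in Balb/c and 6.57 to 6.92 in C57Bl/6J. In the other cell and tissue groups the strains overlapped. Hypothalamic activated Tconv had 1.81% ± 0.0878 in Balb/c and 1.81% ± 0.254 in C57Bl/6J (n = 8 each), rest-brain Tregs 1.61% ± 0.105 (n = 6) and 1.76% ± 0.103 (n = 8), and hypothalamic Tregs 1.92% ± 0.295 and 2.02% ± 0.375 (n = 8 each). The Foxp3-low libraries among the latter gave 1.63% in Balb/c pool 32_36 and 2.50%, 2.22% and 1.54% in C57Bl/6J pools 06_10, 11_15 and 43_47. As RNA was measured in bulk, fewer cells with these transcripts and less RNA per cell cannot be told apart.

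**Figure D1:**
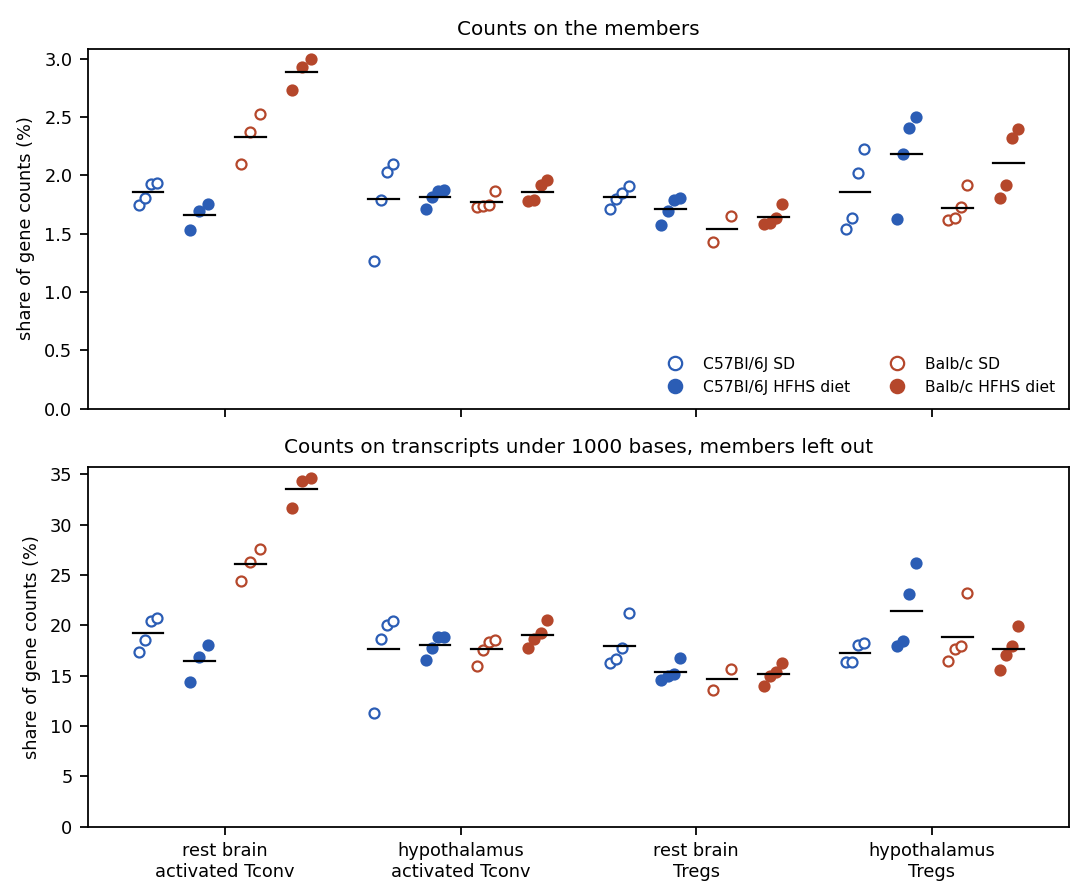
Share of gene counts (%) on the members (upper panel) and on transcripts under 1000 bases with the members left out (lower panel) in the 59 libraries, 1 point per library and a line at each group's mean, by tissue and cell type. Open points are SD and filled points HFHS diet, blue C57Bl/6J and red Balb/c, and the Balb/c activated Tconv of the rest brain have the highest group means in both panels, with 2.10% to 3.0% above and 24.4% to 34.6% below. Single hypothalamic Treg libraries reach into these ranges, such as C57Bl/6J HFHS pool 06_10 at 2.50% and 26.2%.

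In activated Tconv of the rest brain, 74 of 84 members tested differed between the strains, 68 higher and 6 lower in Balb/c, against 23.6% of the 12259 genes tested (12.2% higher and 11.4% lower). The median log2 fold change was 1.04 over the members and -0.03 over all genes. The test was edgeR's quasi-likelihood test with Benjamini-Hochberg adjusted p over all genes tested and a threshold of 0.05, and DESeq2 called 76 members. With offsets that follow transcript length the count fell to 24, with 15 higher and 9 lower and medians of 0.02 for members and 0.04 for all genes, and with the same offsets centred in each library it was 30, with 6 higher and 24 lower. The centred form moved the median of all genes to -0.18, and the members' median was -0.19. For DESeq2 and for fits with either form of offsets the share of all genes called is not given, here or below. Counts of members from DESeq2 or with offsets are therefore not compared with such a share. Without any single pool the count was 70 to 75.

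Across the members the direction went with transcript length. Among the 71 members of 1500 bases or less, 64 were higher in Balb/c and 0 lower, and among the 13 longer members 4 were higher and 6 lower. Most subunits of the chain are small proteins with short messages, while the catalytic subunits of complex II and F1 have long messages. With offsets that follow length, 10 of the 71 shorter members were higher and 4 lower, and 5 of the 13 longer ones were higher and 5 lower. The values given below with length offsets come from that fit.

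Complex I rose in its accessory subunits, with 27 of 29 higher in Balb/c and 0 lower (median log2 fold change 1.10), while the 7 core subunits split into 4 higher and 2 lower. Ndufa5, an accessory subunit of the matrix arm, ranged from 185 to 280 CPM (median 219) in Balb/c and from 77.4 to 117 CPM (median 111) in C57Bl/6J. Ndufa6, another accessory subunit of that arm, ranged from 213 to 451 CPM (median 287) in Balb/c and from 122 to 156 CPM (median 134) in C57Bl/6J. For both genes all 6 Balb/c libraries were above all 7 of C57Bl/6J. The log2 fold changes were 1.40 ± 0.195 (SE, edgeR adjusted p = 7.01e-05) for Ndufa5 and 1.40 ± 0.206 (edgeR adjusted p = 0.000108) for Ndufa6, and 0.33 and 0.31 with length offsets. Ndufs1, the largest core subunit, named after its values were seen, was lower in Balb/c without length offsets (log2 fold change -0.79, edgeR adjusted p = 0.00298). It had 38 to 119 CPM against 111 to 186 CPM, with overlap, and its value with length offsets is not given. The leading genes by level, Ndufa3 and Ndufa1, rose in Balb/c with log2 fold changes of 0.82 (edgeR adjusted p = 0.00565; 238 to 488 CPM against 177 to 278) and 1.28 (edgeR adjusted p = 0.000155; 233 to 409 CPM against 115 to 195). With length offsets they were -0.62 for Ndufa3 and 0.11 for Ndufa1, so that the sign turned for Ndufa3.

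In complex II the catalytic flavoprotein and its partners moved in opposite directions without length offsets. Sdha, which oxidises succinate, ranged from 59.3 to 137 CPM (median 86.7) in Balb/c and from 154 to 369 CPM (median 257) in C57Bl/6J. Sdhb, which carries the iron-sulfur clusters, ranged from 313 to 449 CPM (median 345) in Balb/c and from 265 to 334 CPM (median 295) in C57Bl/6J. Sdha separated the strains fully and Sdhb overlapped between them. The log2 fold change was -1.22 ± 0.192 for Sdha (edgeR adjusted p = 0.00018) and 0.55 ± 0.146 for Sdhb (edgeR adjusted p = 0.01), and the membrane anchor Sdhd had 0.54 (edgeR adjusted p = 0.0092; 159 to 275 CPM against 130 to 217). With length offsets Sdha was at -0.78, and for Sdhb and Sdhd no such value is given. Of the 4 complex II assembly factors Sdhaf4, named after its values were seen, was higher in Balb/c, with the largest rise of all members called (1.64, edgeR adjusted p = 0.000247, and 0.70 with length offsets).

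Complex III had 6 of 8 subunits higher and 1 lower in Balb/c. Uqcr10, a small subunit beside the Rieske protein, ranged from 303 to 526 CPM (median 402) in Balb/c and from 133 to 200 CPM (median 149) in C57Bl/6J. Uqcrc1, a large core subunit on the matrix side named after its values were seen, ranged from 91.1 to 210 CPM (median 170) in Balb/c and from 255 to 325 CPM (median 279) in C57Bl/6J. Neither gene overlapped between the strains, and their directions were opposite without length offsets. For Uqcrc1 no value with length offsets is given. Uqcr10 had the largest rise among the subunits of the complexes (log2 fold change 1.58 ± 0.202 with edgeR adjusted p = 3.85e-05, and 0.32 with length offsets), and Uqcrc1 fell by 0.57 (edgeR adjusted p = 0.00641). Uqcrb and Uqcrh rose by 1.15 (edgeR adjusted p = 0.000372) and 1.16 (edgeR adjusted p = 0.000166), from 184 to 299 CPM in C57Bl/6J to 342 to 587 CPM in Balb/c for Uqcrb and from 182 to 263 CPM to 323 to 566 CPM for Uqcrh.

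Complex IV rose as a whole, with 11 of 11 ubiquitous subunits higher in Balb/c and a median log2 fold change of 1.15, against 2 of 11 higher with length offsets. Cox6a1 ranged from 538 to 794 CPM (median 641) in Balb/c and from 300.3 to 455 CPM (median 391) in C57Bl/6J. Cox6b1, which faces cytochrome c and the partner monomer, ranged from 535 to 806 CPM (median 713) and from 274 to 414 CPM (median 374). Both genes were higher in all 6 Balb/c libraries than in all 7 others. Their log2 fold changes were 1.05 ± 0.17 (edgeR adjusted p = 0.000214) and 1.15 ± 0.176 (edgeR adjusted p = 0.000146), and -0.06 and 0.00 with length offsets. Ndufa4, a subunit of complex IV named for complex I, rose by 1.29 (edgeR adjusted p = 0.000147), from 239 to 391 CPM to 468 to 830 CPM. Cox5a rose by 0.93 (edgeR adjusted p = 0.00147), with overlapping ranges of 247 to 444 CPM in C57Bl/6J and 382 to 689 CPM in Balb/c.

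ATP synthase split between its parts, with 12 of 12 Fo and stalk subunits higher in Balb/c (median log2 fold change 1.002) but 2 higher and 2 lower among the 5 F1 subunits. Atp5b, the catalytic beta subunit of F1, ranged from 246 to 570 CPM (median 405) in Balb/c and from 891 to 1176 CPM (median 1059) in C57Bl/6J. Atp5a1, the alpha subunit that alternates with it in the ring, ranged from 147 to 396 CPM (median 315) and from 535 to 820 CPM (median 620). All Balb/c libraries lay below all C57Bl/6J libraries for both, and the HFHS libraries were the lowest of the Balb/c group. Atp5b had the smallest adjusted p of all members (log2 fold change -1.12 ± 0.131, edgeR adjusted p = 1.74e-05), Atp5a1 had -0.95 ± 0.16 (edgeR adjusted p = 0.000321), and with length offsets the values were -0.90 and -0.55. Atp5md and Atp5h of the Fo and stalk part rose by 1.01 (edgeR adjusted p = 0.00156; 238 to 543 CPM against 176 to 268) and 0.85 (edgeR adjusted p = 0.000627; 574 to 790 CPM against 334 to 499), while with length offsets Atp5md was at -0.44. Atp5pb, a stalk subunit with a message of 1641 bases, was an exception to the pattern by length, with 674 to 792 CPM in Balb/c and 453 to 532 CPM in C57Bl/6J. Its log2 fold change was 0.79 ± 0.129 (edgeR adjusted p = 0.000224) and 0.85 with length offsets, and all its Balb/c libraries were above all others.

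Other short genes also had positive medians, though a smaller part of them was called. Up to 600 bases the median log2 fold change in Balb/c was 1.16 for 38 members and 1.14 for 235 other genes, from 600 to 1000 bases 0.93 for 23 members and 0.83 for 737 others, and from 1000 to 1500 bases 0.58 for 10 members and 0.30 for 1297 others. From 1500 to 3000 bases it was -0.53 for 12 members and -0.33 for 4312 others. Among other genes, 51.9%, 46.4%, 23.4% and 7.88% were called higher in these bands, against 35, 21, 8 and 4 of the members. Across members, Spearman's correlation of length with log2 fold change was -0.71 (n = 84 genes, which are not independent replicates), and across all genes it was -0.06.

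Counts on transcripts under 1000 bases moved with the members' share. With the members left out they made up 24.4% to 34.6% of gene counts in the 6 Balb/c activated Tconv libraries of the rest brain and 14.4% to 20.7% in the 7 C57Bl/6J libraries. The short thymosin gene Tmsb4x alone had 36570 to 60100 CPM in Balb/c and 17910 to 27710 CPM in C57Bl/6J, and cytosolic ribosomal protein genes had 6.87% to 9.95% and 4.21% to 5.84% of counts. In hypothalamic activated Tconv, C57Bl/6J SD pool 11_15 had the lowest share on short transcripts (12% with members included) and the lowest on the members (1.26%). Whether the length of the transcripts captured, or the RNA of the cells, made the difference was not tested.

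**Figure D2:**
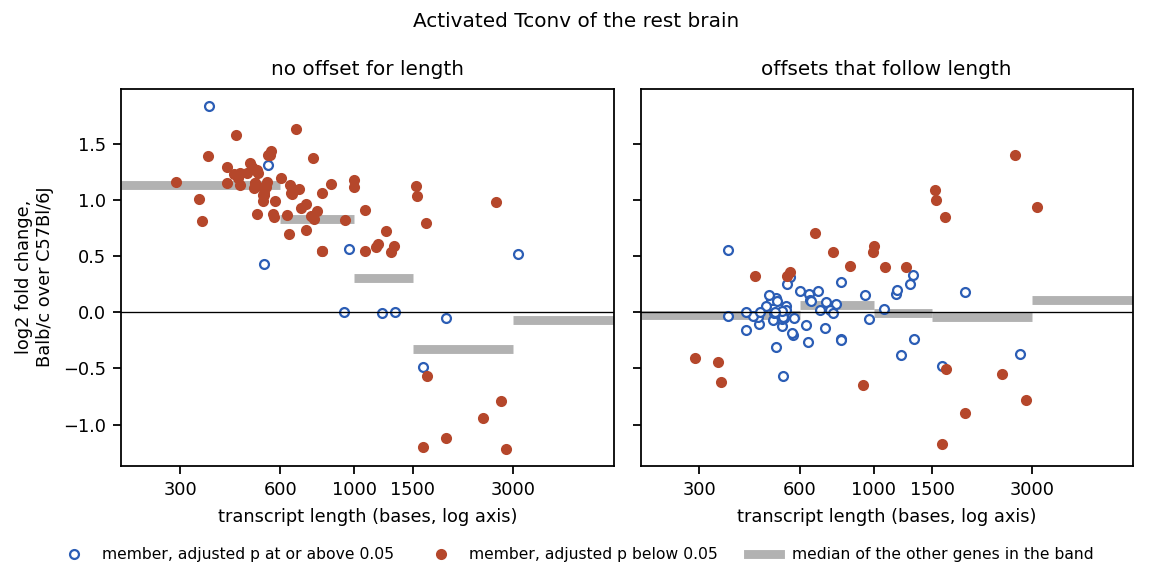
Log2 fold change of Balb/c over C57Bl/6J in activated Tconv of the rest brain for each of the 84 members tested against transcript length (bases, log axis), without offsets (left) and with offsets that follow length (right). Filled points have an adjusted p below 0.05, and grey bars are the medians of the other genes in each length band. Short members lie near the other short genes at left, and at right 15 members are called higher and 9 lower.

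Markers of T cell states and of other cells also differed between the strains in these 13 libraries. Summed over 7 T cell genes that were above 0 throughout, T cell markers had 7896 to 9098 CPM in Balb/c and 7823 to 10000 CPM in C57Bl/6J. Activated Tconv markers did not overlap, at 3300 to 4156 CPM in Balb/c and 4249 to 5799 CPM in C57Bl/6J, and Treg markers had 636 to 1127 and 976 to 1299 CPM. Macrophage or monocyte markers had 419 to 636 CPM in Balb/c and 930.4 to 1583 CPM in C57Bl/6J, oligodendrocyte markers 105 to 605 and 200.1 to 448 CPM, and endothelial markers 11.1 to 25 and 19.0 to 73.7 CPM. Microglial markers had 90.7 to 827 CPM in Balb/c and 68.9 to 115 CPM in C57Bl/6J, neuronal markers 0.365 to 98.2 and 0.121 to 2.42 CPM, and CD8 markers 276 to 479 and 1.94 to 736 CPM. Their part in the members' values was not tested, and without pool 42_46 the count of members called was 75.

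In the other 3 strata no member passed the test for strain. In hypothalamic activated Tconv edgeR called 0 of 83 members (2.1% of 10848 genes), with 5 at an unadjusted p below 0.05 and a median log2 fold change of 0.01 for members and for all genes. In rest-brain Tregs it called 0 of 82 (0.3% of 11679 genes; 3 unadjusted), with medians of -0.17 and 0.08, and in hypothalamic Tregs 0 of 81 (0.0389% of 7709 genes; 0 unadjusted), and 0 of 81 without the 4 Foxp3-low libraries. DESeq2 called 1, 1 and 0 members there, in both cases Atp5g1, an isogene of the c subunit. Atp5g1 ranged from 170 to 220 CPM (median 188) in Balb/c and from 169 to 322 CPM (median 252) in C57Bl/6J hypothalamic activated Tconv, and from 99.2 to 163 CPM (median 118) and 165 to 400.2 CPM (median 222) in rest-brain Tregs. It was thus lower in Balb/c in both groups, with no overlap in the Tregs. Without C57Bl/6J pool 11_15, edgeR called 2 members in hypothalamic activated Tconv, Atp5g1 and Ndufa3.

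**Figure D3:**
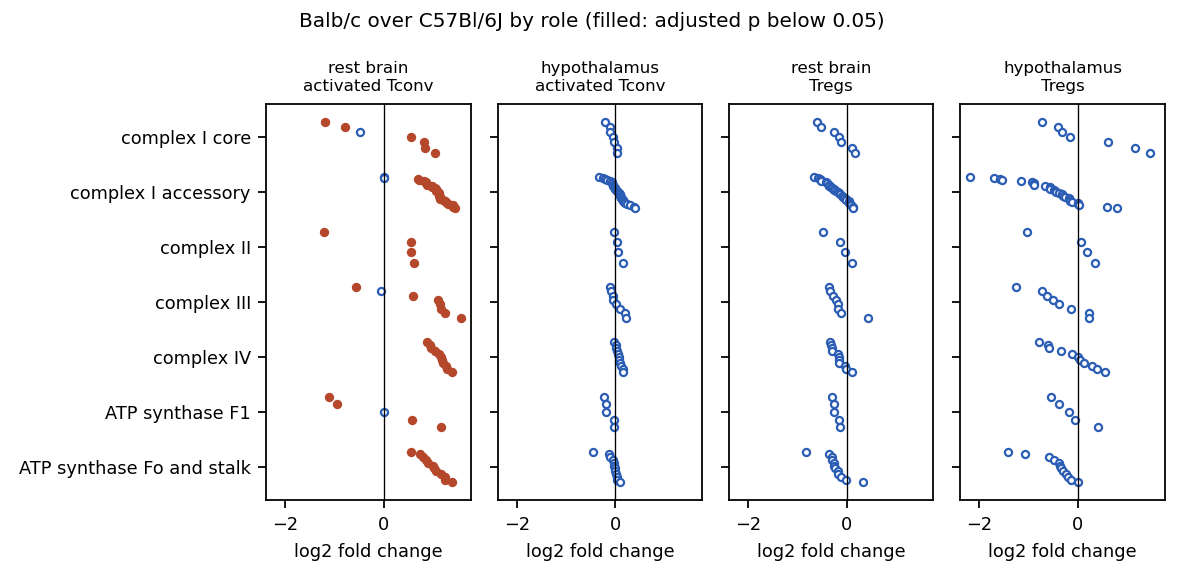
Log2 fold change of Balb/c over C57Bl/6J for the subunits of complexes I to IV and ATP synthase by role in the 4 combinations of tissue and cell type. There is 1 point per gene without offsets for length, filled where the adjusted p was below 0.05. Complex II assembly factors, restricted isoforms, Cox7a2l and the pseudogene are not drawn. Filled points are found in activated Tconv of the rest brain. Over all members, drawn or not, 68 were higher and 6 lower there without offsets, against 15 and 9 with offsets that follow length.

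The strain effect on the members differed between the tissues. An interaction of strain and tissue in activated Tconv, chosen after the shares were seen, was called for 65 of 84 members, 4 positive and 61 negative, against 10.4% of 12803 genes (4.84% and 5.59%). A negative value means that the difference of Balb/c over C57Bl/6J was smaller in the hypothalamus. Uqcr10 had 142 to 222 CPM in Balb/c and 112 to 182 CPM in C57Bl/6J hypothalamus, close to the C57Bl/6J rest brain, and an interaction of -1.34 ± 0.234 (edgeR adjusted p = 0.000613). Atp5o, in the stalk of ATP synthase, had -0.97 (edgeR adjusted p = 0.000783) and Ndufa6 -1.40 (edgeR adjusted p = 0.001). Atp5b (0.96 ± 0.157, edgeR adjusted p = 0.00034), Sdha (1.30, edgeR adjusted p = 0.00612) and Atp5a1 (0.76, edgeR adjusted p = 0.00978) had positive values, as hypothalamic Balb/c libraries held 969 to 1473 CPM of Atp5b against 246 to 570 CPM in the rest brain. With length offsets 7 interactions were called, 2 positive and 5 negative, and with centred offsets 16, of which 13 were positive while the median of all genes moved to 0.25.

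Activated Tconv of the hypothalamus and of the rest brain differed in 53 of 84 members, 4 higher and 49 lower in the hypothalamus, against 16.9% of 12803 genes (5.69% higher and 11.3% lower). The median log2 fold change was -0.46 for members and -0.09 for all genes. Among the genes higher in the hypothalamus were the long messages Atp5b (log2 fold change 0.81 ± 0.122, edgeR adjusted p = 7.62e-05) and Atp5a1 (0.61 ± 0.123, edgeR adjusted p = 0.000732). Those lower with the smallest adjusted p were the complex I subunit Ndufc1 (-0.76 ± 0.164, edgeR adjusted p = 0.00141), Atp5md (-0.73 ± 0.16, edgeR adjusted p = 0.00166) and Ndufa4 (-0.67 ± 0.149, edgeR adjusted p = 0.00198). By role 22 of 29 accessory subunits of complex I, 8 of 11 of complex IV and 9 of 12 of Fo and stalk were lower, without length offsets.

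This tissue difference came from Balb/c libraries. Ndufc1 had 139 to 269 CPM (median 218) in the Balb/c rest brain and 87.5 to 107 CPM (median 100.4) in the Balb/c hypothalamus, and 74.7 to 135 CPM (median 103) and 61.3 to 115 CPM (median 90.8) in C57Bl/6J. Atp5b had 891 to 1176 CPM in the C57Bl/6J rest brain and 1143 to 1496 CPM in the hypothalamus. The Balb/c rest brain thus stood apart from the other 3 groups for Ndufc1, while the C57Bl/6J tissues overlapped. In fits within a strain, chosen after the shares were seen, 71 members were called in Balb/c (27% of genes; 5 higher, 66 lower, median -0.98) and 0 in C57Bl/6J (0.00781% of genes; edgeR, 3 at an unadjusted p below 0.05, median 0.01), and the interaction above tests that difference. DESeq2, run on both strains together, called 60. Paired by pool as a block over 18 libraries, edgeR called 0 members, with 61 at an unadjusted p below 0.05 and a smallest adjusted p of 0.0525, while the same 18 libraries without the block gave 39. Markers of other cells moved with the tissue in Balb/c, with medians in rest brain and hypothalamus of 183 and 359 CPM for oligodendrocyte, 17.4 and 31.8 CPM for endothelial, 110.4 and 77.2 CPM for microglial (highest 827 and 120 CPM) and 549 and 443 CPM for macrophage or monocyte markers, and their part was not tested. The count was 14 with length offsets (7 higher, 7 lower) and 19 with centred ones (15 higher, 4 lower), and 31 to 62 without a single pool, with 33, 31 and 35 without Balb/c pools 15_21, 16_20 and 32_36.

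Tregs and activated Tconv of the rest brain differed in 42 of 84 members, 7 higher and 35 lower in Tregs, against 14.9% of 13921 genes (4.37% higher and 10.5% lower). The median log2 fold change was -0.52 for members and -0.20 for all genes. Atp5a1 had 641 to 1096 CPM in Tregs and 147 to 820 CPM in activated Tconv, and Atp5b 643 to 1741 CPM against 246 to 1176 CPM. Their log2 fold changes were 0.84 ± 0.159 (edgeR adjusted p = 0.000557) and 0.80 ± 0.167 (edgeR adjusted p = 0.00147), with overlap between the cell types for each. Lower in Tregs with the smallest adjusted p were Atp5pb (-0.76 ± 0.146, edgeR adjusted p = 0.000637; 135 to 567 CPM against 453 to 792), Cox5a (-0.94 ± 0.187, edgeR adjusted p = 0.000913; 107 to 404 CPM against 247 to 689) and Ndufa4 (-0.88 ± 0.175, edgeR adjusted p = 0.000972; 193 to 304 CPM against 239 to 830). By role 10 of 11 ubiquitous subunits of complex IV, 9 of 12 of Fo and stalk and 10 of 29 accessory subunits of complex I were lower, and 0 of these groups' members were called with length offsets. The sparse Cox7a1 was at 0 in 13 of 14 Treg libraries and above 0 in all 13 activated Tconv libraries, at 0.171 to 2.86 CPM. Markers of other cells moved with this contrast as well. Macrophage or monocyte markers, 7 genes, summed to 0.122 to 259 CPM in C57Bl/6J Tregs against 930.4 to 1583 CPM in activated Tconv and to 38.2 to 529 against 419 to 636 CPM in Balb/c. Endothelial medians were 94.9 against 32.2 CPM in C57Bl/6J and 94.5 against 17.4 CPM in Balb/c, and oligodendrocyte medians 326 against 356 and 536 against 183 CPM. Microglial medians were 198 against 93.7 CPM in C57Bl/6J and 180.1 against 110.4 CPM in Balb/c, and CD8 medians 14.8 against 39.8 and 27.4 against 348 CPM. Their part in the members' values was not tested.

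Here too the strains differed. Within Balb/c 68 members were called (17.7% of genes; 5 higher, 63 lower, median -1.28), and within C57Bl/6J edgeR called 0 (2.36% of genes; 9 at an unadjusted p below 0.05, median -0.05). The interaction of strain and cell type was called for 41 of 84 members, 3 positive and 38 negative, against 4.23% of 13921 genes (1.87% and 2.36%). It was most negative by adjusted p for Atp5j, a stalk subunit of ATP synthase (-1.25 ± 0.213, edgeR adjusted p = 0.000958), Cox7a2 (-1.63 ± 0.277, edgeR adjusted p = 0.000958) and Atp5l of the Fo part (-1.39 ± 0.246, edgeR adjusted p = 0.00111). Cox7a2 had 347 to 652 CPM in Balb/c activated Tconv and 144 to 201 CPM in Balb/c Tregs, and 188 to 282 CPM and 179 to 347 CPM in C57Bl/6J. Atp5b (1.06), Atp5a1 (0.98) and Sdha (1.495) had positive values, with edgeR adjusted p of 0.014, 0.0187 and 0.0309. The interaction count was 0 with length offsets, 4 with centred offsets (3 positive, 1 negative) and 30 to 54 without a single pool. For the cell type contrast itself the paired block left 17 members (4 higher, 13 lower; 32 from the same libraries without the block), length offsets 10 (8 higher, 2 lower) and centred offsets 11 (6 higher, 5 lower).

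In the hypothalamus edgeR called 0 of 84 members between Tregs and activated Tconv (7.72% of 11254 genes), with 2 at an unadjusted p below 0.05 and medians of 0.13 for members and -0.59 for all genes. DESeq2 called 1, Sdhaf1, and leaving out the 4 Foxp3-low libraries gave 2, Cox7a1 and Cox6b2, both sparse isoforms lower in Tregs. Between hypothalamic and rest-brain Tregs edgeR called 0 of 84 (4.92% of 12571 genes), with 0 at an unadjusted p below 0.05 and medians of 0.25 and -0.61, and DESeq2 called 1, Atp5j2. Without the 4 libraries edgeR called 0 there too. The spread among hypothalamic Tregs was wide, as Atp5b ranged from 2.15 to 2254 CPM in C57Bl/6J and from 554 to 1809 CPM in Balb/c, and Uqcr10 from 139 to 507 CPM and from 0 to 230 CPM. Without C57Bl/6J pool 67_71 the cell type contrast gave 1 member and the tissue contrast 1, Sdhaf3 in each, and without pool 11_15 the cell type contrast gave 2. Length offsets called 28 and 12 members higher, but moved the median of all genes to 1.31 and 0.77, while centred offsets, with all genes at -0.87 and -0.86, called 2 lower (Atp5h and Atp5e) and 0. The members' medians were 1.20 and 1.06 with the offsets and -1.11 and -0.94 when centred. The shares of 7.72% and 4.92% of all genes belong to the fits without offsets.

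Diet called no member in any stratum. With edgeR the counts were 0 of 83 in hypothalamic activated Tconv (0% of 10848 genes), 0 of 81 in hypothalamic Tregs (0% of 7709 genes), 0 of 84 in rest-brain activated Tconv (0% of 12259 genes) and 0 of 82 in rest-brain Tregs (0% of 11679 genes). At an unadjusted p below 0.05 there were 0, 0, 3 and 1 members in that order, and DESeq2 called 0 members in each. Without the 4 Foxp3-low libraries edgeR called 0 of 81 members in hypothalamic Tregs. In rest-brain activated Tconv the values of single members lay in opposite order in the strains, although no member passed the test for diet within either. Cox7b, an integral subunit of complex IV, had 551, 679 and 704 CPM in Balb/c HFHS, 393, 406 and 310.2 CPM in Balb/c SD, 187, 227 and 254 CPM in C57Bl/6J HFHS and 291, 311, 307 and 263 CPM in C57Bl/6J SD. HFHS libraries were above SD in Balb/c and below SD in C57Bl/6J, with no overlap in either strain. Within Balb/c edgeR called 0 members for diet, with 55 at an unadjusted p below 0.05, 73 of 84 positive, a median of 0.56 and a smallest adjusted p of 0.0903, and within C57Bl/6J 0, with 5 unadjusted, 6 of 84 positive and a median of -0.27.

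The interaction of strain and diet in rest-brain activated Tconv, chosen after the shares were seen, was called for 13 of 84 members, 13 positive and 0 negative, against 0.963% of 12259 genes (0.816% and 0.147%). The smallest adjusted p were those of Cox7b (1.56 ± 0.255, edgeR adjusted p = 0.0311), Ndufa6 (1.27 ± 0.246, edgeR adjusted p = 0.0361) and Atp5l (1.18 ± 0.239, edgeR adjusted p = 0.0369). Atp5l had 743, 768 and 783 CPM in Balb/c HFHS and 581, 542 and 454 CPM in Balb/c SD, and 247, 311 and 309 CPM in C57Bl/6J HFHS and 350, 418, 310.4 and 333 CPM in C57Bl/6J SD. The Balb/c diets did not overlap and the C57Bl/6J diets did. The share of counts on short transcripts with members left out moved likewise, at 31.6%, 34.3% and 34.6% in Balb/c HFHS and 27.6%, 26.3% and 24.4% in Balb/c SD, and its part was not tested beyond the offsets, with which 0 interactions were called in either form. The count was 0 without Balb/c pool 16_20, 37_41, 42_46 or 47_25 or C57Bl/6J pool 01_05, 11_15, 33_37, 62_66 or 77_80, and 28 without C57Bl/6J pool 38_42. DESeq2 called 52. The share of 0.963% belongs to the edgeR fit on all pools, and the shares beside 28 and 52 are not given. In hypothalamic activated Tconv the same interaction was called by edgeR for 0 of 83 members (0% of 10848 genes; 0 at an unadjusted p below 0.05) and by DESeq2 for 0.

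Related gene lists were counted beside the members in rest-brain activated Tconv between the strains, where 12.2% of all genes were higher and 11.4% lower. Of 44 assembly genes 14 were higher and 2 lower in Balb/c (median log2 fold change 0.64), with rises of Cox20 (1.05), the copper chaperone Cox17 (1.26) and Cox16 (1.32) and falls of Foxred1 (-1.54) and Ecsit (-1.22), both assembly factors of complex I. Of 11 cytochrome c, carrier and channel genes 6 were higher and 0 lower (0.52), among them cytochrome c itself, Cycs (0.99). Of 78 genes of the mitochondrial ribosome 48 were higher and 1 lower (0.77), with Mrpl52 (1.51) and Mrps10 (1.51) among the rises and Mrps5 (-1.73) the fall. Of 15 genes of the TCA cycle 3 were higher and 5 lower (-0.36), including citrate synthase Cs (-1.11), Dlst (-1.22) and Ogdh (-0.90) among the falls and Sucla2 (0.66) among the rises. Of 13 regulators 1 was higher and 1 lower, which is not above the shares of all genes. The transcription factor Yy1 was higher (0.68, edgeR adjusted p = 0.0497) and Nrf1, which binds promoters of many respiratory genes, was lower (-1.15, edgeR adjusted p = 0.00453). With length offsets 6 assembly genes, 3 carriers and channels, 17 mitochondrial ribosome genes, 1 TCA cycle gene and 2 regulators were called higher, and 1, 1, 2, 3 and 0 lower. Cytosolic ribosomal proteins, a list added after the values were seen, had 74 of 88 higher and 2 lower (1.07), and 28 and 7 with length offsets.

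Between the tissues in activated Tconv, 2 of 44 assembly genes were higher and 10 lower in the hypothalamus (all genes 5.69% and 11.3%). Of 78 mitochondrial ribosome genes 0 were higher and 15 lower. Pdha1, 1 of 15 TCA cycle genes, was higher, near the 5.69% of all genes. The coactivator Ppargc1a was lower (-3.92), a single gene of the regulators given without its level. Neither call is read as a result about its list. Between Tregs and activated Tconv of the rest brain, 3 of 44 assembly genes (Cox17, Cox14 and Uqcc2) and 7 of 78 mitochondrial ribosome genes, among them Mrpl33 (-1.24), were lower in Tregs, which is not above the 10.5% of all genes. The TCA cycle gene Idh3b (0.49) and the intermembrane space protein gene Chchd10 (1.56) were higher in Tregs, where 4.37% of all genes were higher. They are named as single genes and not as results about their lists. In the hypothalamus 1 of 43 assembly genes, Taco1, was lower in Tregs (7.72% of all genes called), and 1 of 12 regulators, Ppargc1b, was lower in hypothalamic than in rest-brain Tregs (4.92% of all genes called). For strain outside the rest-brain activated Tconv and for diet, edgeR called 0 genes of these 5 lists.

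Promoters are shown because many members moved together and the classical regulators of respiratory genes act there. RefSeq windows (GRCm38.p6) of 300 bases, from 250 before to 50 after the start, were found for 73 members and searched on both strands for 3 motifs. The NRF1 motif GCGCATGC was in 13.7% of member windows and 2.8% of all 27025 windows, the ETS motif CCGGAAG in 26% and 9.12%, and the YY1 motif AAGATGG in 13.7% and 6.48%. Any of the 3 was in 34 member windows (46.6%) and in 17.0% of all. Among the windows of 7295 genes that passed 10 counts in 30 or more libraries the shares were 6.42%, 22.4% and 8.62%, and 33.5% for any. The NRF1 motif overlaps itself on the opposite strand in GCGCATGCGC, which counts on both strands, and a match is a description and not evidence of binding. Capitals mark matches to the motifs or to their reverse complements, written from 5′ to 3′ on the strand of the gene, in the genes of smallest adjusted p for strain in each direction, apart from Atp5a1, which is not shown. Of the genes higher in the Balb/c rest brain without length offsets, Ndufa6 (chr15:82354242-82354541, minus strand) holds an NRF1 match, and Uqcr10 (chr11:4704295-4704594, minus strand) and Ndufa5 (chr6:24527477-24527776, minus strand) hold none. Of those lower, Atp5b (chr10:128083057-128083356, plus strand) and Sdha (chr13:74350191-74350490, minus strand) hold none, so that 1 of these 5 windows has a match.
Uqcr10: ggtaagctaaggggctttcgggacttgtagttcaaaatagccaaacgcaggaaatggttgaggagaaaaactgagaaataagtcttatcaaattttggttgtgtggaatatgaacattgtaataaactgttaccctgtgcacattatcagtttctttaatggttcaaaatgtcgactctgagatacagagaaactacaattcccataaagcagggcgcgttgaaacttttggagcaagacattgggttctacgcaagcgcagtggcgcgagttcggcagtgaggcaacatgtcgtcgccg
Ndufa5: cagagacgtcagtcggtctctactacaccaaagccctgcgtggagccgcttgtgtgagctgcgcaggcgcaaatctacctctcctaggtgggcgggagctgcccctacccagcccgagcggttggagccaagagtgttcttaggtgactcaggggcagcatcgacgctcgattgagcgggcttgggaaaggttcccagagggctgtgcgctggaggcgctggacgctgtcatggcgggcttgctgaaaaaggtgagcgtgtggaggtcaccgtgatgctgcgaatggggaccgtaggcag
Ndufa6: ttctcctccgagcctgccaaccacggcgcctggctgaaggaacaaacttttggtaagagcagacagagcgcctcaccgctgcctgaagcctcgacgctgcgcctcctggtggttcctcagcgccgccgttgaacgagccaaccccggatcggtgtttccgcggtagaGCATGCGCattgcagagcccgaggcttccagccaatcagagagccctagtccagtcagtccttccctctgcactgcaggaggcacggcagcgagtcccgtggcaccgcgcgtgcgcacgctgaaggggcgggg
Atp5b: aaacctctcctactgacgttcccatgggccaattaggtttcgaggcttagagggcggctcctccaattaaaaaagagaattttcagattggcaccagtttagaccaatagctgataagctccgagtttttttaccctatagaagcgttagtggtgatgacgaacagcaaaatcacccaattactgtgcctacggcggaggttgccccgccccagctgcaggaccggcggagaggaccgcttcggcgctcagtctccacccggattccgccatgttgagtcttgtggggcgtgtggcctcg
Sdha: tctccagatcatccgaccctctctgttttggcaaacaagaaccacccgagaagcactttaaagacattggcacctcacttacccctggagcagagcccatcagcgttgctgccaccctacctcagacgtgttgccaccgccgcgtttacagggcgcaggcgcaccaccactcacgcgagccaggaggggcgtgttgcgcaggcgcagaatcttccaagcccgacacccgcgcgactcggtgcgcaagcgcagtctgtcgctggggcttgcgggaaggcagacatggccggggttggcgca

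The pilot held 8 hypothalamic libraries, 1 per group, so that its differences have no replicate check and compare libraries. They came from 7 pooled female ob/ob or Bl6 WT mice (CD4+ T cells and CD25hi Tregs) or from 9 pooled female Foxp3 GFP BalbC mice on HFHS diet or SD for 16 weeks (CD44- T cells and Foxp3GFP+ Tregs). The library labelled WT CD25hi Tregs had 18730 CPM of P2ry12 and 0 counts of Cd3d and Cd4, with 13 counts of Foxp3. The libraries labelled WT CD4 and ob/ob CD25hi had 0 counts of the female-specific Xist and 178 and 12 counts of the Y-linked Eif2s3y, against labels that name females. The HFHS Foxp3GFP Treg library had 16 counts of the Y-linked Ddx3y beside 11655 of Xist, and the ob/ob CD4 library 49 counts of Eif2s3y beside 3012 of Xist. The SD CD44- library held 72.7 CPM of Foxp3, near the 75.3 CPM of the SD Foxp3GFP Tregs, against 1.38 CPM in HFHS CD44- cells. The WT CD4 library held 299.5 CPM of Foxp3 (66 counts), above the 270.2 CPM or less of the pilot Treg libraries, and whether labels were exchanged was not tested. All of the ob/ob and WT libraries named here enter the ob/ob comparisons, which cannot be given without them.

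The members took 1.41% of gene counts in ob/ob CD4 cells (95% Clopper-Pearson interval 1.39% to 1.43%; 1727379 counts), 1.67% in WT CD4 cells (1.62% to 1.73%; 220336 counts) and 1.54% in ob/ob CD25hi Tregs (1.47% to 1.62%; 99925 counts). The library labelled WT CD25hi Tregs gave 0.405% (0.400% to 0.411%; 5334511 counts). In Foxp3 GFP BalbC mice CD44- cells gave 1.23% on HFHS diet (1.21% to 1.24%; 2173767 counts) and 1.46% on SD (1.45% to 1.47%; 3315451 counts), and Tregs 0.856% on HFHS diet (0.843% to 0.868%; 2029515 counts) and 1.46% on SD (1.44% to 1.49%; 1234423 counts). HFHS libraries were thus below SD for both cell types, by more than counting error, which is all that these intervals cover. Between 8 and 46 members had no count in a library, most in the shallowest.

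Past 2-fold, with more than 20 normalized reads in either library, were 38 of 72 members in CD44- cells for diet (14 higher and 24 lower on HFHS diet; 61.9% of genes) and 30 of 65 in Foxp3GFP Tregs (8 and 22; 80.5%). For ob/ob against WT they were 56 of 71 in CD4 cells (38 and 18; 89.9%) and 41 of 59 in CD25hi Tregs (18 and 23; 91.4%). The median log2 fold changes were -0.15 for members and -0.24 for all genes in CD44- cells, -0.47 and 0.76 in Foxp3GFP Tregs, 1.72 and 4.51 in ob/ob CD4 cells and 0.00 and -5.07 in ob/ob CD25hi Tregs. With more than 20 normalized reads required in each of the pair, 20 of 53 members passed in CD44- cells (10 higher and 10 lower; 1509 of 3843 genes), 14 of 49 in Foxp3GFP Tregs (1 and 13; 976 of 1978), 22 of 35 in ob/ob CD4 cells (8 and 14; 1046 of 1644) and 15 of 33 in CD25hi Tregs (10 and 5; 899 of 1391). Each member keeps its fold under this filter, which drops those low or at 0 in a library, so the tallies differ by which members are counted. The members' medians were then 0.093, -0.402, -0.814 and 0.318 in the order of these comparisons. Those of all genes were 0.088, -0.004, -0.722 and -0.224. Scaling by total counts moved the medians of all genes to -0.48, 0.11, 4.63 and -2.67 and those of the members to -0.30, -0.93, 1.59 and 1.79. In CD25hi Tregs this gave 35 higher and 17 lower, a shift of all genes together that the choice of scaling sets. TMM scaling gave 48 higher and 9 lower in ob/ob CD4 cells, with a median of 2.70 for members and 4.80 for all genes.

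Among members that passed 20 normalized reads in each library of a comparison, the extremes in CD44- cells were the complex I subunit Ndufb6 (56 counts on HFHS diet and 1668 on SD; log2 fold -4.13, interval -4.54 to -3.74) and the complex III core subunit Uqcrc2 (1603 and 509 counts; 2.42, 2.28 to 2.57). In Foxp3GFP Tregs they were the complex I subunit Ndufc2 (84 and 873 counts; -3.64, -3.98 to -3.32) and Atp5a1 (511 and 152 counts; 1.48, 1.22 to 1.76). Between ob/ob and WT CD4 cells they were the Fo subunit Atp5k (47 and 54 counts; -3.16, -3.76 to -2.57) and Ndufb6 (616 and 7 counts; 3.50, 2.44 to 4.82), and between the CD25hi libraries Uqcrc2 (6 and 741 counts; -2.98, -4.43 to -1.85) and Cox6b1 (88 and 155 counts; 3.15, 2.75 to 3.54). Ndufb6 lay at opposite ends of the CD44- and ob/ob CD4 comparisons.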

How the data were processed

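The authors mapped the pilot reads to mm10 with BWA and deposited HTSeq counts per gene symbol. For the second experiment the authors deposited Salmon estimated counts (NumReads) and length-scaled TPM per RefSeq name. Estimated counts were summed per gene and rounded after summing, and CPM used the counts on genes. The versions of Salmon, BWA and HTSeq were not given. Tests used edgeR 4.0.16 (TMM, quasi-likelihood, Benjamini-Hochberg) and DESeq2 1.42.0 in R 4.3.3 on genes passing 10 counts in a number of libraries not below the size of the smallest group, and tables used Python 3.11.15, pandas 2.3.3 and SciPy 1.17.1. The named genes were the 2 of highest TPM per complex, paralogues, the 3 of smallest adjusted p per comparison and direction (also per list) and the pilot extremes. Pools of the same name within a strain were taken as pairs, and residual correlations within pools had medians of -0.006 to 0.022. The members and lists were chosen with earlier results of these data known. Offsets for transcript length, fits within a strain, interactions and the ribosomal protein list were added after values were seen, and the centred offsets after the first offsets moved the median of all genes. Pilot libraries were scaled by median of ratios over the 786 genes with a count above 0 in every pilot library. A floor of 3 counts, expressed as CPM per library, did not enter the scaling.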

Additional observations from a re-analysis of the deposited data

Results flagged for a closer look

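The share of counts on the members in hypothalamic activated Tconv of Balb/c mice on SD stood apart in pool 32_36, at 1.868% against 1.747%, 1.733% and 1.725% in the other 3 libraries of the group. Of 24 groups tested for such a library, chance flags about 1 in 20. The interactions chosen after the shares were seen called 41 members for strain and cell type in the rest brain, 13 for strain and diet in activated Tconv of the rest brain and 65 for strain and tissue in activated Tconv.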

How the results depend on the processing

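Counts of members called by edgeR are given with the value under each alternative that moved them, and the cause was not tested. Shares of all genes called under these alternatives are not given here. Strain in rest-brain activated Tconv (74) gave 24 with length offsets and 30 with centred offsets, where the direction reversed. Tissue in activated Tconv (53) gave 14 and 19, the latter reversed, 0 in C57Bl/6J alone and 31 to 62 without a single pool (33, 31 and 35 without Balb/c 15_21, 16_20 and 32_36). Tregs against activated Tconv of the rest brain (42) gave 10 and 11, both reversed, 0 in C57Bl/6J alone and 68 in Balb/c alone. With pools paired as a block, tissue in activated Tconv gave 0, Tregs against activated Tconv 17 in the rest brain and 2 in the hypothalamus.

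Tregs against activated Tconv of the hypothalamus (0) gave 1 with DESeq2, 28 with length offsets, 2 with centred offsets, 2 without the Foxp3-low libraries, 2 in Balb/c alone and 0 to 2 without a single pool. Tissue in Tregs (0) gave 1 with DESeq2, 12 with length offsets, 1 in Balb/c alone and 0 to 1 without a single pool. Strain in hypothalamic activated Tconv (0) gave 1 with DESeq2, 1 with either form of offsets and 0 to 2 without a single pool, and strain in rest-brain Tregs (0) gave 1 with DESeq2.

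The interaction of strain and cell type (41) gave 0 with length offsets and 4 with centred ones, reversed. Strain and tissue (65) gave 7 and 16, the latter reversed. Strain and diet in the rest brain (13) gave 52 with DESeq2, 1 with a filter of more than 10 counts in total, 0 with either form of offsets and 0 to 28 without a single pool. In the pilot, more than 20 normalized reads in both libraries left 20 of 53, 14 of 49, 22 of 35 and 15 of 33 members past 2-fold, as members low or at 0 in a library are then not counted. The mean share of the members was 4.855% by summed TPM.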
